A study of Mus musculus with 47 samples.

Results

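Cytosolic ribosomal protein genes encode the proteins of the large (Rpl) and small (Rps) subunits of the ribosome that works in the cytosol. The genes described here were those of the bone marrow-derived macrophage (BMDM) tables that carry the KEGG ribosome pathway in their annotation and a symbol starting with Rpl or Rps. This rule used no expression value and gave 332 of 51912 genes. Of these, 249 were named as pseudogenes, 7 were tissue-specific or duplicated paralogs, and 76 remained, 43 of the large and 33 of the small subunit. These 76 genes are called the ribosomal protein genes in what follows. The deposited tables of the cell lines described below type 72 of them as protein-coding and the other 4, Rps3a2, Rps3a3, Rps12l1 and Rpl6l, as pseudogenes although their names do not say so. The annotation lacks the pathway for 8 further genes with such symbols, among them Rps18, Rplp2, Rpl24, Rpl35 and Rpl41, which therefore lie outside the rule.

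Ribosomal proteins are made in nearly equal amounts and assemble with ribosomal RNA into the subunits. Their mRNAs are short, abundant and stable, and most begin with a 5′ terminal oligopyrimidine tract, a C at the first base followed by a run of pyrimidines, through which mTOR signalling and the protein Larp1 control their translation. Because translation can change without any change in mRNA, mRNA levels as measured here do not give the rate of ribosome production.

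RNA-seq was measured in 12 libraries, and every group had 1 library, so that no difference below has a replicate check and no test across groups was made. BMDMs, which are macrophages grown from C57BL/6 bone marrow with M-CSF, came from WT mice (littermates with the floxed Zmynd8 allele) and from Zmynd8 cKO mice, whose Cre was driven from the Lyz2 locus of myeloid cells. They were left untreated (M0) or treated for 6 h with LPS at 100 ng/ml (M1) or with IL-4 at 20 ng/ml (M2), and 3 biological replicates were mixed into each library. The other 6 libraries were labelled Raw264.7, a mouse macrophage line: Zmynd8 KO cells alone, or given back Zmynd8 or its D/E-A mutant, and LPS-treated p65 KO cells alone, or given back WT p65 or p65 K122R. The KO lines were made with lentiviral guide RNAs, and no source used here says whether each was 1 clone. The header of the WT p65 column says WT and LPS without a p65 KO, and the labels name no treatment for the 3 Zmynd8 libraries. The study's text describes LPS treatment for those with Zmynd8 and D/E-A, and none was found for Zmynd8 KO alone.

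Library totals were 22597408 to 28386612 counts in BMDMs and 15127110 to 21042628 reads in the other libraries. Zmynd8 held 2284, 1967 and 3636 counts in WT BMDMs (untreated, LPS, IL-4) and 1842, 2033 and 3944 in the libraries labelled cKO. Reads from undeleted exons are still counted for the gene, so that these totals do not check the deletion. In the lines, Zmynd8 had 121 reads in Zmynd8 KO against 485 with Zmynd8 and 497 with D/E-A, and Rela, which encodes p65, had 765 reads in p65 KO against 1601 with WT p65 and 5850 with K122R. The 3 libraries of the Zmynd8 lines stood apart from the 3 of the p65 lines and went against their label. All 7 neutrophil markers had reads there and summed to 4419 to 10340 CPM (reads scaled to a common library total), whereas in the p65 lines 3 of the 7 were listed and summed to 0.180 to 0.319 CPM, and Xist had 7109 to 8467 reads against 0 to 3. Ribosomal RNA took 8.17% to 17.1% of their reads, against 0.228% to 0.636%.

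Runs of pyrimidines lie near the annotated start in some of the genes that differed most in their response to LPS. None of the runs marked below begins exactly at the start. The windows below hold 8 bases before and 20 bases from a transcript start in the RefSeq promoter table of GRCm38.p6, on the gene's own strand. Capitals mark a C and the run of at least 4 pyrimidines after it, where one begins from 8 bases before to 10 bases after the start. Where several do, the one nearest the start is marked. Rps24 and Rps27 had some of the highest changes after LPS in WT, and Rpl12, Rpl4, Rpl10a and Rpsa some of the lowest. Rps24 and Rpl10a each have a further start in that table, whose window has no such run.
Rps24: tggggtCCTTCCTTgcgcgttgatatga
Rps27: ctttcgCTCCTTTCCggcggtgacgacc
Rpl12: caggatccgtCTTTTCggctttcggctc
Rpl4: tcctgtgggagcagccgggtagagagga
Rpl10a: CCCCCCagcggccgcaaactgcagcgcc
Rpsa: atttaaggacgtcatttccggccgcccg
They lie on chr14:24490670-24490697 (+), chr3:90213629-90213656 (-), chr2:32961704-32961731 (+), chr9:64173379-64173406 (+), chr17:28328463-28328490 (+) and chr9:120127758-120127785 (+). Counted from the start, the runs of Rps24 and Rps27, at the high end, begin at -2, and that of Rpl12, at the low end, at 2. The run of Rpl10a, also at the low end, begins at -8 and is 6 bases long. It ends before the start, outside the transcript, and opens the window, so that it may begin further upstream. Of the genes shown, Rpl12 alone thus has a run within the transcript at the low end. No run begins from 8 bases before to 10 bases after these starts of Rpl4 and Rpsa.

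Of the 76 ribosomal protein genes, 53 had a promoter entry, with 63 windows of 250 bases before to 50 bases after the start. A C followed by at least 4 pyrimidines stood exactly at the start in 15.9% of these windows and in 2.50% of all 32817 windows of that length. Within 10 bases of the start, such a run began in 52.4% of their windows and in 30.7% of all. The motif CCGGAAG, the core site of ETS factors such as Gabpa, was present on either strand in 33.3% of their windows and 8.86% of all, and TATAAA in 9.52% and 13.6%. These are matches of letters, which may overlap, and not evidence of binding.

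Ribosomal protein genes were among the most abundant transcripts of BMDMs. On the TPM scale, which divides by length and so allows genes to be compared, their median level was 865 in untreated WT, 373 after LPS and 1085 after IL-4. In cKO the corresponding medians were 1218, 369 and 1079. In untreated WT, 47 of the 76 genes were among the 200 highest TPM of the library, against 10 after LPS. In untreated cKO 56 were, against 9 after LPS.

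Rplp1, an acidic stalk protein of the large subunit, had the highest median level. Its TPM were 3466, 1826 and 3966 in WT and 4542, 1677 and 3848 in cKO (untreated, LPS, IL-4), so that both LPS libraries lay below the other 4. Rps24, a small subunit protein, came next with 2161, 3120 and 2836 in WT and 2719, 2944 and 2824 in cKO, and its LPS libraries were the highest. At the lower end, Rpl5, which carries 5S ribosomal RNA into the large subunit, had only 28.8, 5.15 and 19.9 TPM in WT, and Rpl12 had 52.0, 3.07 and 28.6. Rps3a2, Rps3a3 and Rpl6l were at 0 to 0.53 TPM, and Rps12l1 was at 0 in 4 libraries, 1.75 in IL-4-treated cKO and 19.45 in IL-4-treated WT. In the lines Rps3a2 had 3970 to 4382 reads in the 3 p65 libraries and 13 and 18 in Zmynd8 KO without and with Zmynd8, and it is not listed for D/E-A.

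**Figure D1:**
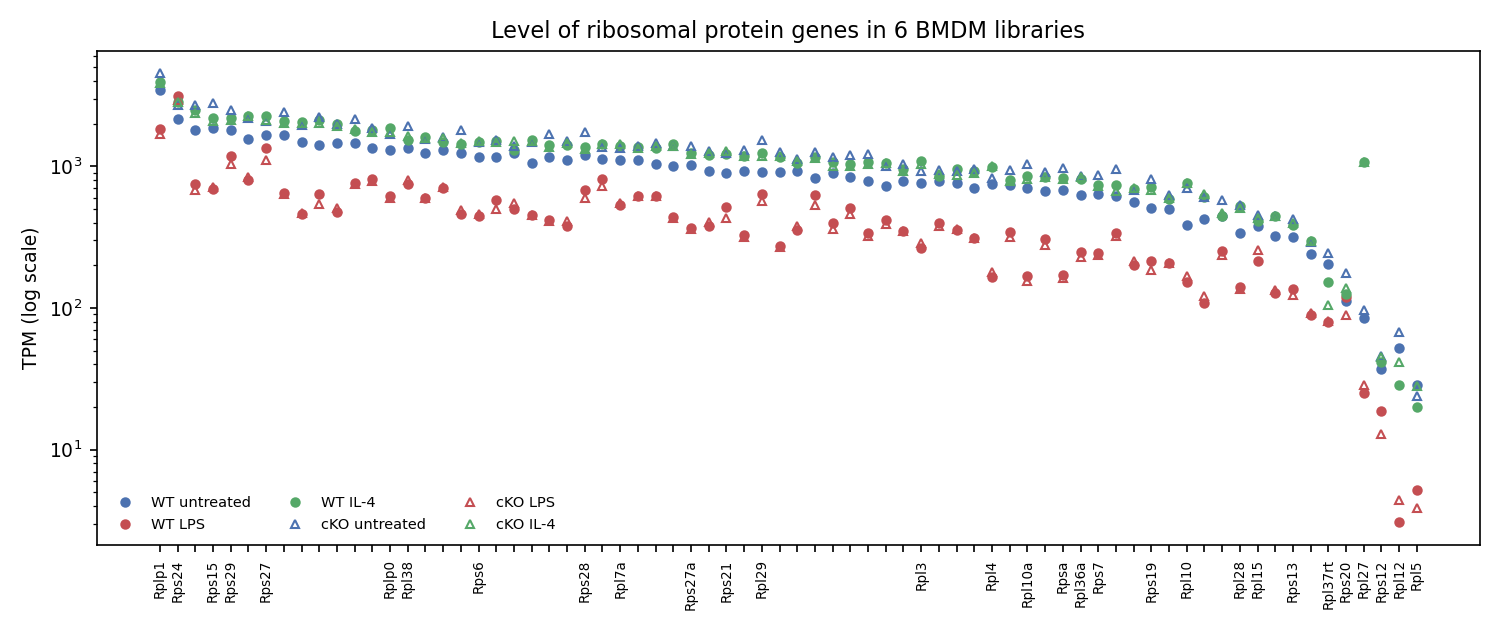
Level in TPM (log scale) of the 72 ribosomal protein genes above 0.5 TPM in all 6 BMDM libraries, ordered by median, with names under the genes that the text describes. Circles are WT, triangles are cKO, and colours give the treatment. The red LPS symbols lie below the others for nearly every gene, with Rps24 the clearest exception, while Rpl27, Rps12, Rpl12 and Rpl5 form a low tail.

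For some genes of this low tail, a pseudogene held more counts than the gene itself. Of the 249 pseudogenes, 137 had no count in any BMDM library, but 3 processed copies held more counts than their parent genes. Rpl10-ps3 had 15055, 6978 and 16590 counts in WT BMDMs (untreated, LPS, IL-4), and Rpl10 had 3633, 1450 and 7039. Rps12-ps3 had 12486, 6447 and 15751 counts, and Rps12 only 364, 123 and 355. Rpl27-ps3 had 5542, 2942 and 5186 counts, and Rpl27 620, 173 and 2167. The summed copies of Rps13 also exceeded their gene in all 6 BMDM libraries.

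In the lines, whose tables were made separately, these genes held more reads than their copies. Rpl10 had 8233 to 15534 reads and Rpl10-ps3 48 to 111, and Rps12 had 6317 to 14414 reads and Rps12-ps3 20 to 83. Copies took 6.71% to 8.40% of the reads of genes and named copies in BMDMs and 0.314% to 1.39% in the lines. In BMDMs, 23.0% to 33.8% of the counts above 0 of the ribosomal protein genes were exactly whole as deposited (tolerance 0), against 75.2% to 76.6% over all genes, the others being estimates that divide reads. In the 3 p65 libraries, in turn, the summed copies of Rps2 (4648, 4965 and 4401 reads in p65 KO, with K122R and with WT p65) exceeded the gene (3204, 3453 and 2951), and copies of Rpl3 held 3693 to 4085 reads. The split between a gene and its copies is uncertain, and so are the values of Rpl10, Rpl27, Rps12, Rps13 and, in the p65 lines, Rps2 alone. Rpl12 and Rpl5 were also far lower in BMDMs, at 46 to 1017 and 83 to 663 counts, than in the lines. There they had 3795 to 12580 and 5262 to 17954 reads. Their changes in BMDMs rest on these few counts, and the reason for the low counts was not tested.

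**Figure D2:**
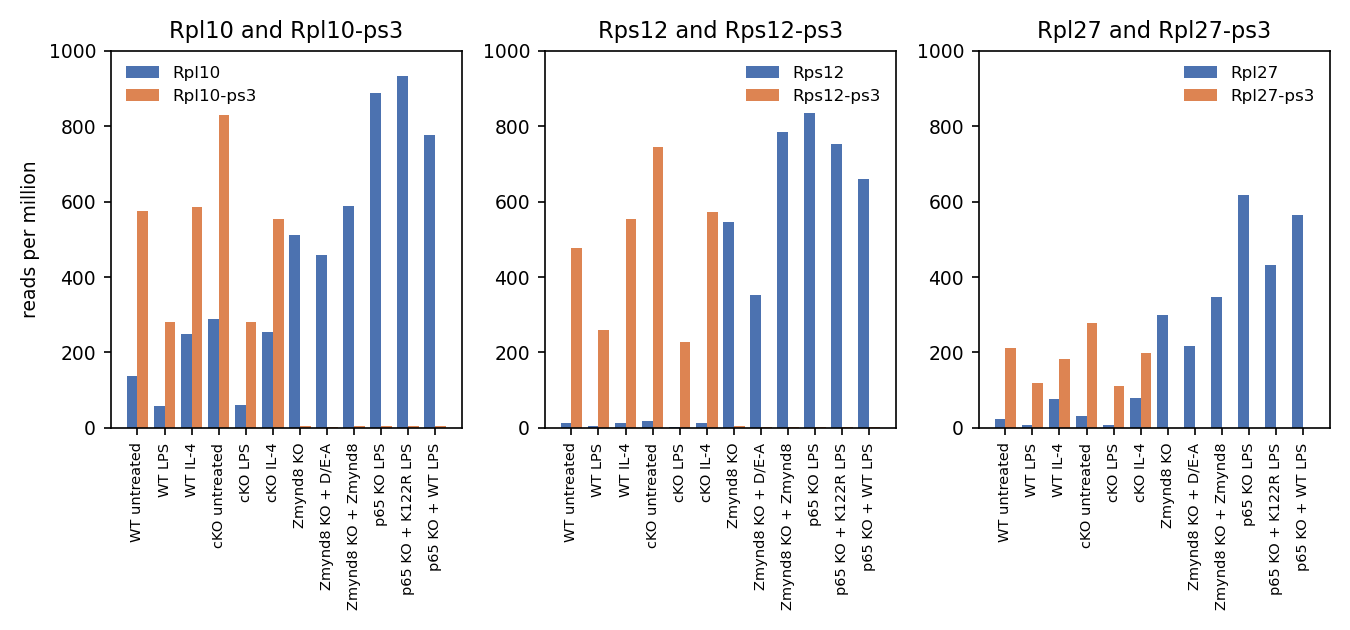
CPM of Rpl10, Rps12 and Rpl27 (blue) and of 1 processed pseudogene of each (orange) in 12 libraries, with 1 library in each group. The orange bars exceed the blue ones in all 6 BMDM libraries and are near 0 in the lines. Rpl27-ps3 is not listed in the tables of the lines.

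The share of all gene reads that fell in the ribosomal protein genes summarises each library. In BMDMs it was 2.16% in untreated WT, 1.04% after LPS and 2.72% after IL-4. In cKO it was 3.49%, 0.955% and 2.74%. The shares of both LPS libraries were the lowest of all 12, and untreated cKO was the highest of the BMDMs. Both subunits followed the same order, with 1.24%, 0.567% and 1.57% for the large and 0.926%, 0.473% and 1.15% for the small subunit in WT. The 95% Clopper-Pearson limits on the shares after LPS in cKO were 0.951% and 0.959%, and such limits cover counting error only, not the spread between cultures. In bulk RNA, fewer cells of a type and less RNA per cell cannot be told apart.

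In the p65 lines the share was 4.97% in p65 KO, 4.51% with K122R and 4.18% with WT p65. It was 2.69% in Zmynd8 KO, 1.98% with D/E-A and 3.52% with Zmynd8.

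**Figure D3:**
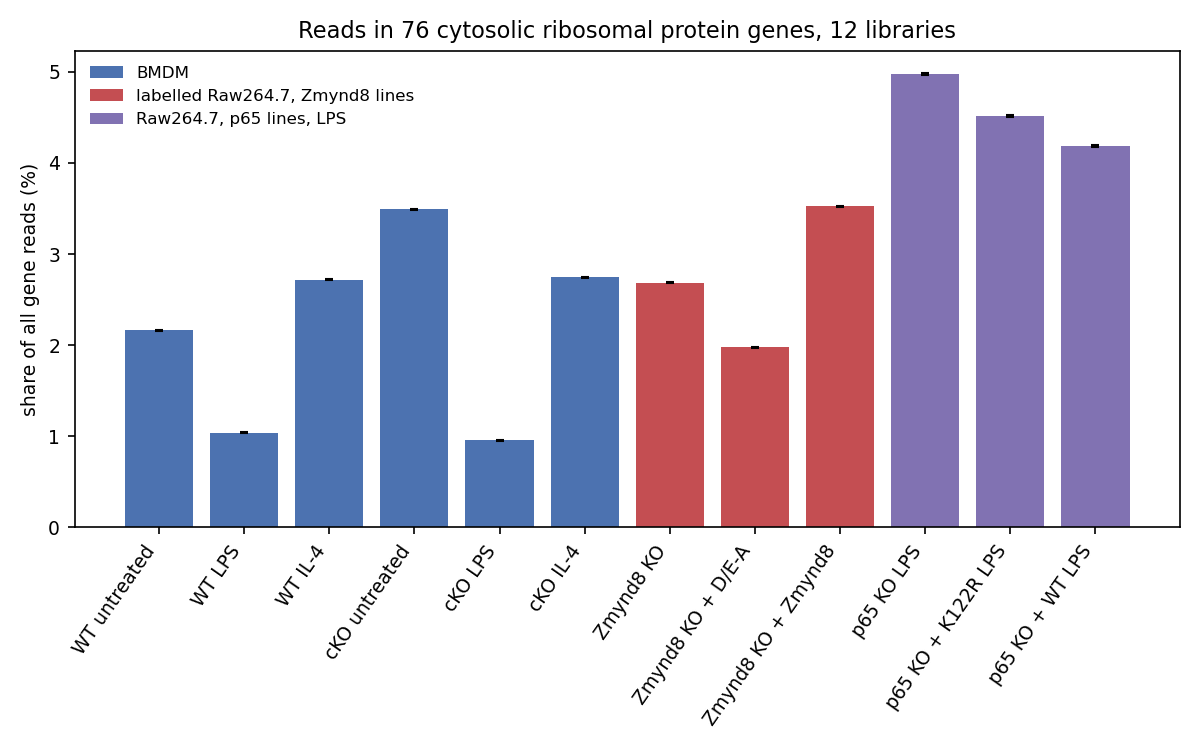
Share of all gene reads (%) in the 76 ribosomal protein genes in each of 12 libraries. Bars start at 0 and error bars are 95% Clopper-Pearson limits, which cover counting error only. The LPS libraries of BMDMs are lowest at 1.04% and 0.955%, and the p65 lines are highest at 4.18% to 4.97%.

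In untreated BMDMs, ribosomal protein genes were higher in cKO than in WT. Rplp1 had 571 CPM in WT and 905 in cKO, a log2 fold change of 0.66 (95% limits 0.63 to 0.70). Rpsa, the laminin receptor-like small subunit protein, had 739 and 1221 (0.72, 0.70 to 0.75), and Rplp0, the scaffold of the stalk, had 1023 and 1598 (0.64, 0.62 to 0.67). Of 72 genes that averaged at least 10 counts, 71 were higher by a fold of at least 1.2 and none was lower by it, where 25% of 12463 genes were higher and 29% lower. Their log2 fold changes had a median of 0.71, against -0.01 over all genes and -0.07 over genes averaging 1000 counts or more. Over all members past the filter, the median was 0.67 on counts and 0.43 on deposited TPM, on which the median of all genes was -0.20.

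All 72 log2 fold changes were above 0, but they differed in size. The largest were Rpl10 (1.05), Rpl29 (1.02), Rps19 (0.95), Rpl28 (0.92) and Rps15 (0.88), and the smallest Rpl5 (0.16, limits 0.0034 to 0.33), Rpl4 (0.39) and Rps12 (0.41). With their copies, Rpl10 was at 0.65 and Rps12 at 0.64, and on TPM Rpl5 was at -0.25, near that median of all genes. The median was 0.70 for the large and 0.71 for the small subunit. Among the listed pseudogenes, Rps13-ps2 (2.02, from 30 and 174 counts) and Rps16-ps2 (1.24) had the largest folds and Rpl10a-ps1 (-0.33) was the lowest.

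The other genes of protein synthesis were higher to a smaller extent. Of 78 mitochondrial ribosomal protein genes, whose products serve the ribosomes of mitochondria, 64 were higher and none lower by a fold of at least 1.2, with a median of 0.43. Of 16 translation factors with a pyrimidine tract, 9 were higher and 2 lower (median 0.31), and of 32 ribosome biogenesis genes 15 were higher and 1 lower (median 0.24). Growth signalling genes were split, 3 higher and 4 lower of 11 (median -0.12). Fau and Rack1, which also encode parts of the cytosolic ribosome, were higher, and 7 of the 8 genes outside the rule were, with a median of 0.66.

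Other values moved with genotype as well. Mitochondrially encoded mRNAs took 1.74% of the reads in untreated WT and 2.42% in cKO, proliferation markers summed to 1060 and 1241 CPM, of which Pcna, the sliding clamp of DNA replication, held 932 and 1061, and macrophage markers summed to 18279 and 14671. The drop of Lyz2, the locus that drives Cre, was at least as large as that gap, with 10950 and 7202 CPM. Adgre1 (1072 and 872), Fcgr1 (788 and 448), Itgam (862 and 525), Mertk (98.8 and 40.4) and Csf1r (1731 and 1666) were also lower in cKO. Cd68 (2555 and 3466) and Cd14 (223 and 452) were higher. Neutrophil markers summed to 2.29 and 2.35. Their part in the difference was not tested.

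After LPS and after IL-4 the genotypes did not show this difference. After LPS the median of 72 genes was -0.10 (all genes 0.03), with none higher and 10 lower by a fold of at least 1.2, where 22.6% of all genes were higher and 13.3% lower. These 10 lie near the share over all genes. All were of the small subunit, among them Rps27 (-0.37) and Rps12 (-0.44), which with its copies was at -0.20 and missed a fold of 1.2. The lowest large subunit gene, at -0.257, just missed that fold. The medians were -0.09 for the large and -0.15 for the small subunit, so nothing is read from the split. After IL-4 the median of 73 genes was 0.01 (all genes 0.01), with 2 higher and 2 lower, where 17.3% of all genes were higher and 13.4% lower. The 2 higher were Rpl5 (0.56) and Rpl12 (0.43), both with few counts in BMDMs. The 2 lower were Rpl37rt (-0.45) and Rps12l1 (-1.26, one of the 4 typed as pseudogenes). Ribosome biogenesis genes were higher in cKO in 23 of 32 cases after IL-4, with none lower, and in 15 of 32 after LPS, with 2 lower, and had medians of 0.35 and 0.23. That the genotypes differed more in untreated cells than after treatment was not tested, since each group had 1 library.

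**Figure D4:**
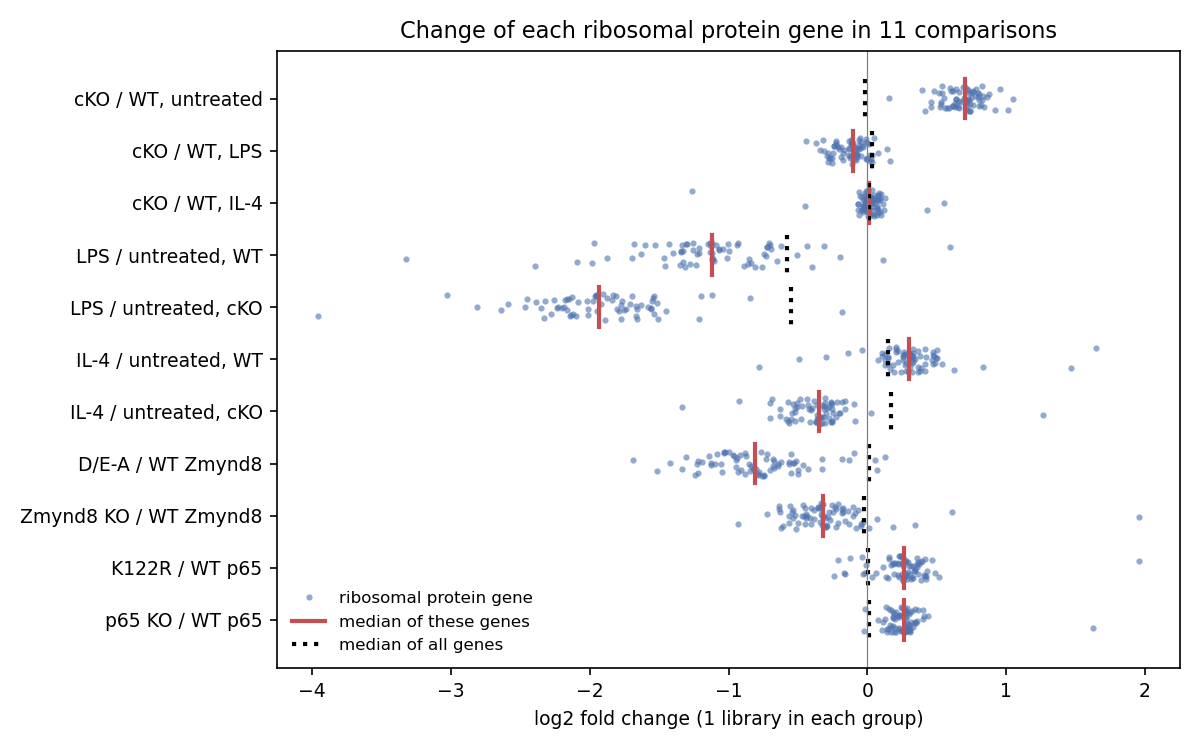
Log2 fold change of each ribosomal protein gene past the filter (blue points) in 11 comparisons of 1 library with 1 library. Red lines are the median of these genes and dotted lines the median of all genes. The red line lies at 0.71 for untreated cKO against WT, at -1.12 and -1.93 for LPS, and at -0.81 for D/E-A.

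LPS was followed by lower ribosomal protein mRNA in both genotypes. In WT, Rps6, the small subunit protein that S6 kinase phosphorylates, had 502 CPM untreated and 200 after LPS (-1.32), and Rpl3, of the large subunit's catalytic core, had 570 and 206 (-1.47). Of 72 genes, 69 were lower and 1 was higher by a fold of at least 1.2, where 63% of all genes were lower and 21.7% higher. The median was -1.12, but the median of all genes was -0.58 and that of genes averaging 1000 counts or more was -0.45. In cKO the median was -1.93 against -0.55 and -0.32, with 71 of 72 lower and none higher, where 60.5% of all genes were lower and 25% higher.

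The genotypes differed more before LPS (2.16% and 3.49% of reads) than after it (1.04% and 0.955%). With the median ratio in place of totals as scale, the medians of all members past the filter were -0.52 in WT and -1.24 in cKO, and the all-gene median moved to -0.08 and -0.07.

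Rps24 and Rps20 had the highest log2 fold changes of the 72 genes in both genotypes. Rps24 had 394 CPM in untreated WT and 596 after LPS (0.60, limits 0.56 to 0.63), and 600 and 529 in cKO (-0.18, -0.22 to -0.15). Rps20, another small subunit protein, had 181 and 196 in WT (0.12, 0.06 to 0.17), and 292 and 162 in cKO (-0.84). Rps27 (-0.20 and -1.19) also lay above the median. The sign depended on scale for Rps24 in cKO, which was at 0.39 with the median ratio and 0.11 on TPM, and for Rps27 in WT, which was at 0.41 with the median ratio.

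At the other end, Rpl12, a large subunit protein near the stalk, had 784 counts in untreated WT and 52 after LPS, and 1017 and 46 in cKO (-3.32 and -3.96, understated by the pseudocount). These counts are far below those of Rpl12 in the lines. Rpl4 was lower by -2.09 and -2.45, Rpl10a by -1.98 and -3.03, and Rpsa by -1.97 and -2.81. Across the 72 genes the WT and cKO changes had a Pearson r of 0.92 and a Spearman rho of 0.89, and 64 genes lay on the same side of both medians. These comparisons share no library, but their points share the gene models and the way reads were divided among copies, so that the correlation is a description.

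**Figure D5:**
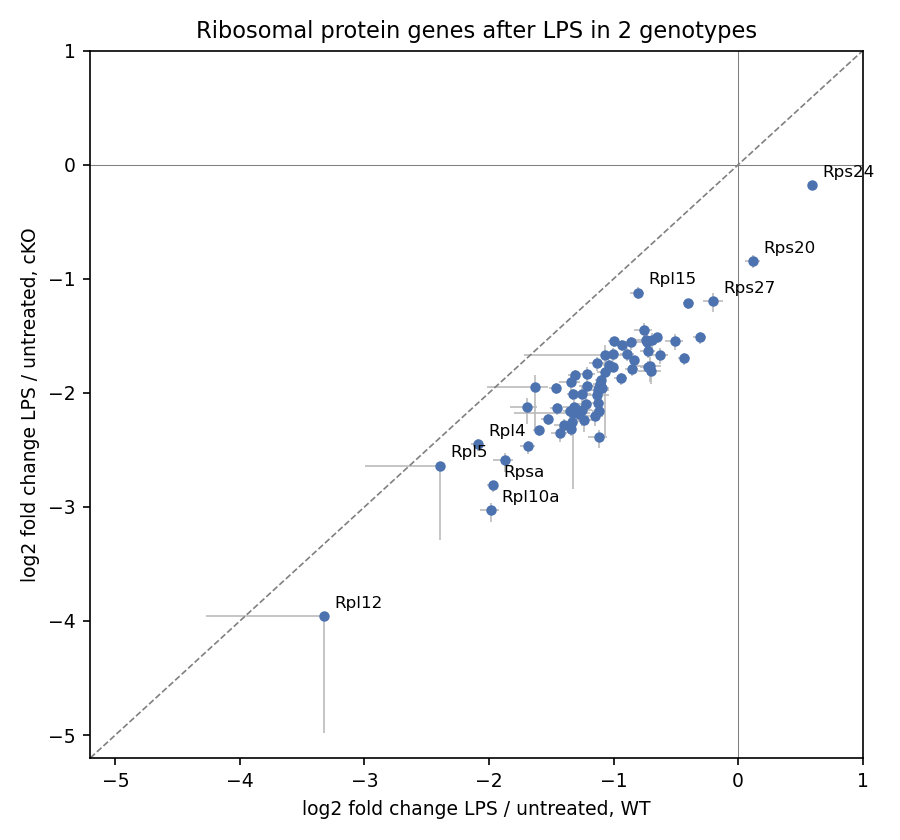
Log2 fold change after LPS in WT (x axis) and cKO (y axis) for 72 ribosomal protein genes. Grey bars are 95% limits on the reads, taken without a pseudocount, so that for genes with few reads such as Rpl12 they lie below the point. All points lie below the dashed line of equal change, and Rps24 and Rps20 lie apart at the top right.

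Other genes of protein synthesis were lower after LPS as well. Ribosome biogenesis genes, which act on ribosomal RNA in the nucleolus, were lower in 32 of 32 cases in WT (median -2.74) and in 31 of 32 in cKO (-2.98). Translation factors were lower in 16 of 16 in both (-1.45 and -1.43), and mitochondrial ribosomal protein genes in 66 and 74 of 78 (-0.90 and -1.46). Growth signalling genes were lower in 7 of 11 in both, with 3 higher, which is near the 63% and 60.5% lower of all genes. Proliferation markers summed to 1060 CPM in untreated WT and 444 after LPS, and to 1241 and 502 in cKO. Pcna made up most of these sums, with 932 and 419 CPM in WT and 1061 and 475 in cKO. Every other marker of the list was lower after LPS too, except Mki67 in WT. Mcm2 had 50.1 and 2.05 CPM in WT and 59.1 and 4.99 in cKO, and Top2a 8.81 and 1.41, and 12.2 and 1.66. Mki67, which marks cycling cells, had 8.13 and 11.4 in WT and 11.5 and 8.88 in cKO. Macrophage markers summed to 18279 CPM in untreated WT and 13288 after LPS, and to 14671 and 9593 in cKO. Lyz2 carried most of both gaps, with 10950 and 6902 CPM in WT and 7202 and 2892 in cKO. Csf1r (1731 and 588 in WT, 1666 and 567 in cKO) and Cd68 (2555 and 1648, 3466 and 1427) were lower as well. The Fc receptor gene Fcgr1 (788 and 1939 in WT, 448 and 1735 in cKO), Adgre1 and Mertk were higher in both genotypes. Cd14 and Itgam went in opposite directions in WT and cKO. Mitochondrially encoded mRNAs went from 1.74% to 1.19% of the reads in WT and from 2.42% to 1.27% in cKO. The part of these values in the difference was not tested.

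IL-4 went with a small change whose direction depended on genotype. In WT, Rplp0 had 1023 CPM untreated and 1440 after IL-4 (0.49), and in cKO 1598 and 1373 (-0.22). In WT the median of 73 genes was 0.30 (all genes 0.15), with 46 higher and 3 lower, where 41.3% of all genes were higher and 23.1% lower. In cKO the median of 72 was -0.35 (all genes 0.17), with 1 higher and 54 lower, where 44.7% were higher and 26.2% lower. The IL-4 shares themselves were alike, 2.72% and 2.74%, so the opposite signs rest on the untreated libraries. With the median ratio as scale, the median of all members past the filter in WT was 0.13 in place of 0.30, and 22 in place of 57 of 95 were higher, where 4101 of 13090 genes were. On deposited TPM the median in cKO was -0.078 in place of -0.35, where that of all genes was 0.34 in place of 0.17, and Rplp0 was at 0.035.

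Rpl27 had the highest log2 fold change in both genotypes, 1.65 in WT and 1.27 in cKO. Summed with its copies, it was 0.14 and -0.16, so that the value rests on how reads were divided between Rpl27 and Rpl27-ps3. Rpl22l1, a paralog of Rpl22, was lower in both, with 406 counts untreated and 167 after IL-4 in WT (-1.26) and 497 and 188 in cKO (-1.49). Neutrophil markers summed to 382 and 514 CPM in the IL-4 libraries, against 2.29 and 2.35 untreated, with no neutrophil marker at 0. Their part was not tested, and each treatment has a deposited table of its own, so that treatment and table cannot be told apart.

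In the libraries labelled Raw264.7 Zmynd8 KO, ribosomal protein genes were lower with D/E-A than with Zmynd8. The deposited value of Rplp1 was 20960 with Zmynd8 and 8295 with D/E-A (-1.34, limits -1.37 to -1.30), and that of Rpsa was 17149 and 7355 (-1.22). Of 74 genes, 68 were lower and none higher by a fold of at least 1.2, where 35.9% of 12771 listed genes were lower and 36.7% higher. The median was -0.81, against 0.02 over all genes and 0.32 over genes whose values averaged 1000 or more.

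Rps7 (0.07), Rpl7a (0.06), Rpl15 (-0.10) and Rpl4 (-0.13) hardly differed, while Rpl38 (-1.51), Rps21 (-1.42), Rplp1 (-1.34) and Rps15 (-1.30) were lowest among genes whose values averaged 1000 or more. The table lists only genes with at least 21 reads in the library with Zmynd8, so a member with few reads there is missing however many it had with D/E-A. Of 29 listed pseudogenes 27 were lower, and nothing is read from this count. Mitochondrial ribosomal protein genes were lower in 60 and higher in 5 of 77 cases (-0.68), and ribosome biogenesis genes lower in 16 and higher in 2 of 32 (-0.24).

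Zmynd8 KO lay between them. Rplp1 was 22371 with Zmynd8 and 15606 in Zmynd8 KO (-0.52) in the separately scaled table of that pair. Of 76 genes, 48 were lower and 3 higher, where 36.5% of all genes were lower and 33.8% higher, and the median was -0.32 against -0.03 over all genes. Without the 4 genes typed as pseudogenes, 46 of 72 were lower and 1 was higher. Among genes whose values averaged 1000 or more, Rpl7a (0.34) and Rpl15 (0.19) lay at the top, and Rps21 (-0.73), Rps15 (-0.64) and Rpl38 (-0.64) at the bottom, but both comparisons use the same library with Zmynd8.

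The neutrophil markers moved in the same order as the ribosomal protein genes: 10340 CPM with Zmynd8, 6960 in Zmynd8 KO and 4419 with D/E-A. S100a8, a calcium-binding protein of neutrophils, had 49845, 34121 and 17370 reads. Macrophage markers had the opposite order (4978, 6388 and 9447 CPM), and ribosomal RNA took 17.1%, 13.8% and 8.17%. Without ribosomal RNA in the total, the shares of the ribosomal protein genes were 4.25%, 3.12% and 2.15%. The part of these values in the differences was not tested.

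In LPS-treated Raw264.7 cells of the p65 lines, ribosomal protein genes were slightly higher without p65 and with K122R, a lysine-to-arginine mutant of p65, than with WT p65. Rplp0 had a deposited value of 13829 with WT p65 and 18660 with K122R (0.43, limits 0.40 to 0.46), and 13858 and 16689 in the table of p65 KO (0.27). With K122R, 37 of 76 genes were higher and none lower by a fold of at least 1.2, where 30.8% of all genes were higher and 32.5% lower. The median was 0.26 against 0.01 over all genes. In p65 KO, 39 of 75 were higher and none lower, where 26.3% were higher and 25.7% lower, and the median was 0.26 against 0.01. Both comparisons use the same WT p65 library.

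With K122R, Rps29 (0.52), Rps7 (0.49) and Rpl36a (0.46) were highest and Rpl27 (-0.24) and Rpl38 (-0.21) lowest among genes whose values averaged 1000 or more. In p65 KO, Rps15 (0.43), Rps28 (0.41) and Rps27a (0.40) were highest. Scaling by the total of reads moved the median of all members with K122R from 0.26 to 0.12, and left p65 KO at 0.27. With K122R, 43 in place of 78 of the 164 members were then higher and 30 in place of 23 lower, where 4750 of 19670 genes were higher and 8071 lower. Mitochondrial ribosomal protein genes went the other way with K122R, 33 lower and 5 higher of 77 (-0.20), as did ribosome biogenesis genes, 20 lower of 32 (-0.28). In p65 KO these lists had medians of 0.08 and -0.04. Ribosomal RNA took 0.636% of the reads with K122R and 0.228% with WT p65, and proliferation markers summed to 669 and 1053 CPM, and their part was not tested.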

How the data were processed

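RNA-seq of 12 libraries was used, and the other 35 samples of the series were not analysed here. For BMDMs the authors deposited estimated counts and TPM per gene from reads aligned with TopHat to mm10, and for the lines the authors deposited 1 normalized signal value per gene. The length column deposited with the BMDM counts was not used. The signal was whole reads divided by a size factor for 100% of genes (tolerance 0.1 read; 99.9958% in Zmynd8 KO), and those reads gave limits and shares. The D/E-A table lists only part of that library's genes. The design had assumed counts for the lines, and the rule it gave for other units was applied.

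Deposited log2 fold changes, p-values and q-values were not used, nor were 2 unlabelled columns of per-sample values. Rows that named no gene (431, 431 and 2 in the untreated, LPS and IL-4 tables) held no counts. Counts were rounded and divided by library totals (CPM), with a pseudocount of 1 and a mean of at least 10 counts. Deposited values of the lines took the same pseudocount and a mean of at least 1. A fold of at least 1.2 counted as higher or lower, and limits were 95% Clopper-Pearson limits (scipy 1.17.1). Fold changes are on the log2 scale and understate those of low genes. Genes were named by a rule: the 5 highest and 5 lowest members of each comparison with a mean of at least 100 counts or a value of at least 10, folds of at least 2, paralogs, landmarks, and the highest and lowest TPM. Others, such as Xist and the copies, were chosen after their values were seen. The members, the lists and the rule were chosen with earlier results of these data known. Alternatives were a pseudocount of 0.1, no filter, a mean of at least 1000, scaling by totals, the median ratio (DESeq2) or TMM (edgeR), deposited TPM, the genes without paralogs and pseudogenes, and a fold of 2. Genes summed with their copies, and totals without ribosomal RNA, were added after seeing the data. Some items are not reported here. The fold code was tested on simulated data.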

Additional observations from a re-analysis of the deposited data

Results flagged for a closer look

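The median log2 fold change of the ribosomal protein genes in cKO against WT was 0.71 in untreated BMDMs and -0.10 after LPS, which have opposite signs. It was 0.30 for IL-4 against untreated in WT and -0.35 in cKO. Each rests on 1 library in each group, and neither difference was tested. The untreated libraries enter every value but the one after LPS.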

How the results depend on the processing

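Medians are of all members past the filter, on the log2 scale. With the median ratio as scale they were -0.52 (LPS, WT), -1.24 (LPS, cKO), 0.13 (IL-4, WT) and -0.54 (IL-4, cKO), in place of -1.12, -1.81, 0.30 and -0.35, and with TMM -0.54, -1.26, 0.12 and -0.57. Without a filter they were 0.53 for untreated cKO against WT (0.67 with it), -0.70, -1.54, 0.19 and -0.23. On deposited TPM they were 0.43 for untreated cKO against WT, -1.58 for LPS in cKO and -0.078 for IL-4 in cKO, where the medians of all genes were -0.20, -0.27 and 0.34. Without ribosomal RNA in the total, D/E-A was at -1.02 in place of -0.84. No median for which most members were called changed its sign, and of the named genes, those whose sign changed under another scale had not reached a fold of 1.2: Rpl5 (untreated cKO against WT), Rps27 (LPS, WT), Rps24 (LPS, cKO), Rplp0 (IL-4, cKO), and Rps7 and Rpl7a (D/E-A). The cause of these moves was not tested. Without mitochondrially encoded genes and the 10 highest other genes in the total, the members' shares were 2.80%, 1.32% and 3.26% in WT BMDMs, 4.57%, 1.21% and 3.28% in cKO, 3.42% in Zmynd8 KO, 2.36% with D/E-A, 4.72% with Zmynd8, 5.49% in p65 KO, 5.01% with K122R and 4.60% with WT p65. After IL-4 in WT, 22 in place of 57 of 95 members were higher with the median ratio, where 4101 of 13090 genes were. After IL-4 in cKO, 19 in place of 65 of 95 were lower and 9 in place of 5 higher on TPM, where 2187 of 12966 genes were lower and 7160 higher. No paired analysis was possible because each group has 1 library. Depth limits only the low members: the limits on abundant genes are narrow, but they say nothing of the spread between cultures.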
